A study of Mus musculus with 96 samples.

Results

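Zfp42, Esrrb, Tfcp2l1, Klf2, Nr0b1, Prdm14, Klf4, Klf5 and Tbx3 encode transcription factors and a corepressor tied to naive pluripotency. They were followed in single mouse embryonic stem (ES) cells. The 9 genes were taken by symbol from a table of 23284 gene rows, and each had its own row. J1 is a male ES cell line from 129 mice. Per the labels, J1 cells of passage 12 to 20 were grown without feeder cells in medium with 15% fetal bovine serum and 1000 U/ml leukaemia inhibitory factor (LIF), the cytokine that sustains self-renewal. Each cell was lysed on a microfluidic chip, where SMARTer chemistry turned its RNA into amplified cDNA, and Nextera XT fragments of that cDNA were read on an Illumina HiSeq. The 48 cells, each read on 2 lanes (96 samples), form 1 group, and no other genotype, medium or treatment is compared here. Separate cultures are not named in the labels. The cells therefore count as 1 sample, and p-values cover the spread among these cells only.

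Naive pluripotency is the state of the pre-implantation epiblast, and mouse ES cells hold it through a network of factors that act on each other and on Pou5f1, Sox2 and Nanog. LIF acts through STAT3 on Klf4 and Tfcp2l1, while beta-catenin relieves the repression of Esrrb by Tcf7l1. In serum, single ES cells are known to differ in how much of this network they express, and some cells turn on genes of primitive endoderm, the extraembryonic layer marked by Gata6.

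Cells were described in 2 classes by Gata6, at 20 CPM, the summed count of both lanes as a share of the scaled library total (counts per 1e6). The 13 cells over 20 CPM (Gata6-over) had a median of 300.1 CPM of Gata6, and the 35 cells under it (Gata6-under) a median of 0.159 CPM. The cells nearest the threshold had 63.7 CPM above it and 1.11 CPM below it, and thresholds of 5 and 50 CPM gave the same classes. The classes are cells of 1 sample, so differences between them are given as values without a p-value. Depth was 4408953 to 9767245 reads per cell, on 8039 to 10291 genes. Gata6-over cells had a median of 8076614 reads and 8986 genes, against 6419369 reads and 9045 genes in Gata6-under cells. All 16 of 16 primitive endoderm markers were at least 2-fold higher in Gata6-over cells, with summed levels of 11058 to 44521 CPM there, against 53.8 to 1490 CPM in Gata6-under cells. Of these markers Gata6 was used to divide the cells. Cdx2 of trophectoderm, T and Gsc of mesendoderm, the 4 markers of 2-cell-like cells and the fibroblast markers Col3a1, Dcn and Postn had 0 reads in all cells. Of 5 tested trophectoderm markers 2 were higher and 2 lower by 2-fold. The keratin Krt8 averaged 428 CPM in Gata6-over cells and 32.6 CPM in Gata6-under cells (log2 3.71), and Krt18 averaged 833 CPM in Gata6-over cells and 48.5 CPM in Gata6-under cells (log2 4.10). Both were detected in 13 of 13 Gata6-over cells. Tfap2c averaged 4.30 CPM in Gata6-over cells and 47.7 CPM in Gata6-under cells, and Eomes, also a mesendoderm marker, 1.34 CPM in Gata6-over cells and 5.97 CPM in Gata6-under cells. The trophectoderm list summed to 202 to 3930 CPM in Gata6-over cells and 0.927 to 1925 CPM in Gata6-under cells. Mixl1 of mesendoderm was detected in 2 Gata6-over and 4 Gata6-under cells, and fibroblast markers summed to at most 7.15 CPM in Gata6-over cells and 35.9 CPM in Gata6-under cells. The part of these markers in the results on the factors was not tested. No doublet caller was run, and images of the captured cells were not used here.

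The 9 factors summed to a median of 836 CPM in Gata6-over cells (207 to 1605 CPM). In Gata6-under cells the median sum was 2603 CPM (270.2 to 5554 CPM). Zfp42 alone had medians of 275 and 1628 CPM in these classes, so it made up much of the sums. Pou5f1 ran from 0 to 63.4 CPM in Gata6-over cells and from 3.65 to 190 CPM in Gata6-under cells. By Pou5f1 alone, the label of ES cells was not met alike by all Gata6-over cells. Of 6 core pluripotency markers, Pou5f1 among them, 4 were at least 2-fold lower in Gata6-over cells and 0 higher. Sall4 averaged 2397 CPM in Gata6-over cells and 2187 CPM in Gata6-under cells, and Lin28a 364 and 317 CPM. Both were detected in 13 of 13 Gata6-over cells. A median of 6 factors was detected in Gata6-over cells and of 8 in Gata6-under cells, where detection is at least 5 reads after thinning every cell to 4408953 reads. Mean CPM was at least 2-fold lower in Gata6-over cells for 6 of the 9 factors (Zfp42, Esrrb, Tfcp2l1, Klf2, Nr0b1 and Prdm14), against 27.7% of the 11746 genes tested. None of the 9 was at least 2-fold higher, against 18.2% of genes. The difference of mean log2(CPM + 1) for the 6 ran from -3.52 to -2.05. The median log2 ratio of mean CPM was -1.91 over the factors and -0.22 over all tested genes. No factor had every Gata6-over cell below every Gata6-under cell, and that held for 0% of genes, while 0 of 9 had every Gata6-over cell above every Gata6-under cell, against 0.196% of genes. CPM is a share of each cell's reads, so fewer transcripts of a factor and more RNA of other genes cannot be told apart.

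**Figure D1:**
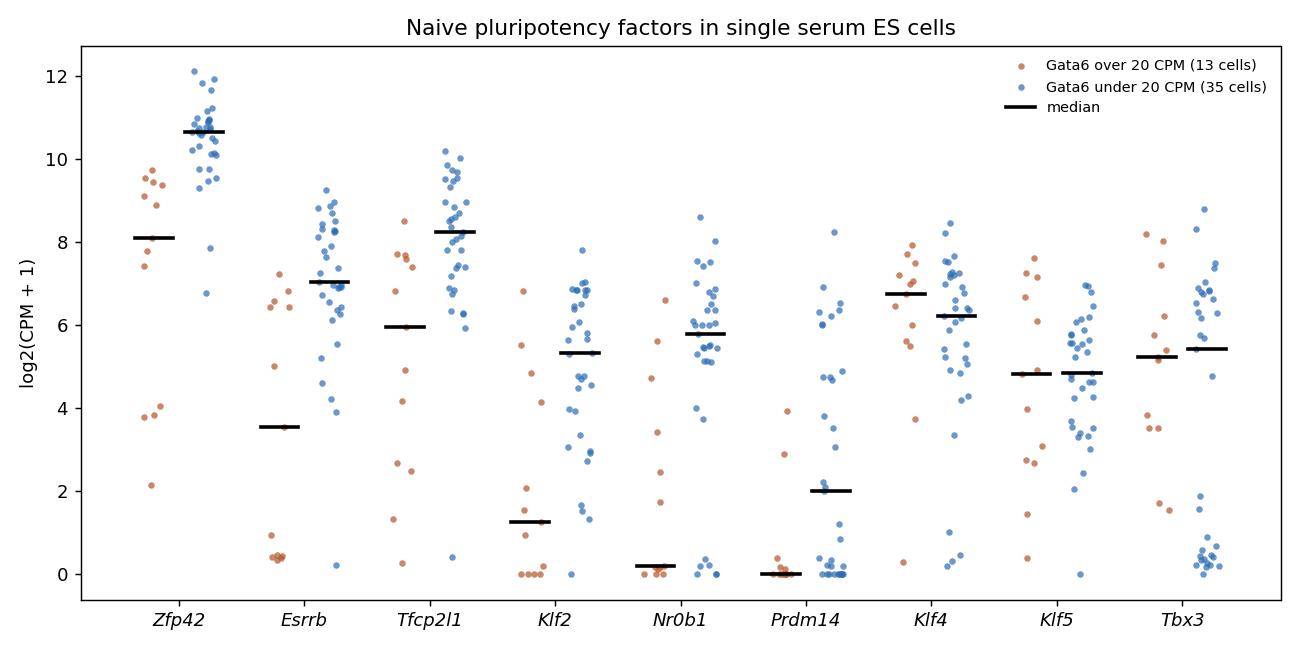
The plot of levels by class shows log2(CPM + 1) of each factor in every cell (points) with the class median (black bar), Gata6-over cells (13) on the left of each pair and Gata6-under cells (35) on the right. For Zfp42 the medians are 275 and 1628 CPM, while for Klf4, Klf5 and Tbx3 the points of both classes overlap over most of their range.

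Levels can be set side by side between genes only per length, and CPM per kilobase of exon is used for that here, with exon lengths from GENCODE M21, which is not the annotation that was counted. On that scale Zfp42 had the highest level of the 9 factors in 9 of 13 Gata6-over cells and in 35 of 35 Gata6-under cells. Klf4 was highest in 3 of the other Gata6-over cells and Tbx3 in 1. In Gata6-under cells the median level of Zfp42 was 866 CPM per kilobase, with quartiles of 599.5 and 1036. Tfcp2l1 (31.9), Nr0b1 (30.1), Klf4 (24.4), Esrrb (21.6) and Klf2 (21.3 CPM per kilobase) followed, and each of these medians lay within the quartiles of the others. Tbx3 (6.38) and Klf5 (5.37 CPM per kilobase) came next, and Prdm14 had the lowest median, 1.18.

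The promoter windows of 4 factors show how unlike their starts are: Zfp42, Klf2, Nr0b1 and Klf4. Mean CPM of Zfp42, Klf2 and Nr0b1 was at least 2-fold lower in Gata6-over cells, and that of Klf4 was not. Each sequence is the 250 bases before the annotated start, 5′ to 3′ on the gene's strand, from RefSeq on GRCm38.p6, while the counts were made on mm9. The windows are chr8:43307010-43307259 on the minus strand, chr8:72318812-72319061 on the plus strand, chrX:86191525-86191774 on the plus strand and chr4:55532476-55532725 on the minus strand. Capitals mark matches, on either strand, to the octamer bound by POU factors (ATTTGCAT), a KLF motif (CCNCNCCC), an ERR motif (AAGGTCA), a STAT motif (TTCNNNGAA), a TATA box (TATAAA) and a SOX motif (ACAATGG).
Zfp42: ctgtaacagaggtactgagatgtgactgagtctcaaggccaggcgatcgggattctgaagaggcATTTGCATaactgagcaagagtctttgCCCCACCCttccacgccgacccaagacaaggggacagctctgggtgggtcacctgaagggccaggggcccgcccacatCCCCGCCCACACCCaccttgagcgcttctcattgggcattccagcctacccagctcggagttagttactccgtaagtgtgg
Klf2: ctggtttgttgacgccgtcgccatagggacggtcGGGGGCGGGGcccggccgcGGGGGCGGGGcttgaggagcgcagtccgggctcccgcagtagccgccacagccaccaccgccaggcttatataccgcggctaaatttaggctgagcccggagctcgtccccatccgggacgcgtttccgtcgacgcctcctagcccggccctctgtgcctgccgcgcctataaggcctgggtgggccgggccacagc
Nr0b1: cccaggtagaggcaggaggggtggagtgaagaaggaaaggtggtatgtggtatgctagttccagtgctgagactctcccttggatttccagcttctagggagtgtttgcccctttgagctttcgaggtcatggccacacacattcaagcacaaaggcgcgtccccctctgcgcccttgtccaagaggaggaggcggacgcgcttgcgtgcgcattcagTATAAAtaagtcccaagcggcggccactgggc
Klf4: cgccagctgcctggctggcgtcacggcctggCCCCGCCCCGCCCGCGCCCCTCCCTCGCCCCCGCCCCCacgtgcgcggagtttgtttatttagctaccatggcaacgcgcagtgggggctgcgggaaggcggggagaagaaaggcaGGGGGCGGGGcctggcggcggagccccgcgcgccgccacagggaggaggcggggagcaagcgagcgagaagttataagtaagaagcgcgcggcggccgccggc
The Zfp42 window held the octamer once, starting at -186 from the start, and 1.6% of 32851 mouse windows of this length held it. KLF matches, which may overlap each other, numbered 3 for Zfp42, 4 for Klf2, 0 for Nr0b1 and 9 for Klf4, and 45.9% of all windows held at least 1. Nr0b1 had a TATA box at -32, as 12.4% of windows did. Windows were matched for 6 of the 9 factors. Tfcp2l1 and Esrrb were also at least 2-fold lower in Gata6-over cells. The Tfcp2l1 window had 2 KLF matches and a TATA box at -28. Esrrb had windows for a pair of starts, with 8 and 1 KLF matches and a STAT match at -178 in the first. The STAT motif was held by 7.02% of windows. ERR and SOX motifs, held by 4.08% and 3.02% of windows, had no match in the 7 windows. A TFCP2L1 motif, CCNG repeated after a spacer of 6 bases of any kind, was searched on both strands and is not capitalised. It had 2 overlapping matches for Klf2, 1 for Nr0b1, 1 in the first Esrrb window and 0 for Zfp42, Klf4 and Tfcp2l1, and 24.9% of windows held it. A match here is a string of letters and not a measured binding site, and a link of matches to levels was not tested.

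Zfp42 (Rex1) encodes a zinc-finger protein related to YY1 and is a standard marker of undifferentiated mouse ES cells. Its level ran from 3.46 through a median of 275 to 852 CPM in Gata6-over cells, and from 109 through 1628 to 4467 CPM in Gata6-under cells. Of the 13 Gata6-over cells, 4 lay below every Gata6-under cell and all 13 at or below the Gata6-under median, so the classes overlapped only in part. Mean CPM was 362 ± 316 in Gata6-over cells (SD, n = 13) and 1699 ± 949 in Gata6-under cells (SD, n = 35), a ratio 4.70-fold lower (log2 -2.23). Zfp42 was nevertheless detected in 13 of 13 Gata6-over cells and 35 of 35 Gata6-under cells. Within the Gata6-over class it formed separate levels, with 4 cells at 15.6 CPM or less and 9 at 172 CPM or more.

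Esrrb encodes an orphan nuclear receptor that can stand in for Nanog in self-renewal. Its level ran from 0.278 through a median of 10.7 to 149 CPM in Gata6-over cells, and from 0.165 through 131 to 617 CPM in Gata6-under cells. It was detected in 7 of 13 Gata6-over cells (53.8%, Clopper-Pearson 95% interval 25.1% to 80.8%) and in 34 of 35 Gata6-under cells (97.1%, 85.1% to 99.9%). These intervals treat each cell as a draw and cover the counting of cells only. Esrrb was close to all or none in the Gata6-over class: 6 cells had at most 0.920 CPM and the other 7 at least 10.7 CPM. Mean CPM was 44.2 ± 53.7 in Gata6-over cells (SD, n = 13) and 202 ± 159 in Gata6-under cells (SD, n = 35), a log2 ratio of -2.19.

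Tfcp2l1 encodes a CP2-family factor that carries part of the LIF and STAT3 signal. Its level ran from 0.203 through a median of 61.8 to 365 CPM in Gata6-over cells, and from 0.329 through 301 to 1185 CPM in Gata6-under cells. All but 1 of the Gata6-over cells lay at or below the Gata6-under median, although 12 of 13 were within the Gata6-under range. Mean CPM was 106 ± 115 in Gata6-over cells (SD, n = 13) and 396 ± 312 in Gata6-under cells (SD, n = 35), a log2 ratio of -1.91. The gene overlaps a small RNA gene, Gm23497, on the same strand in GENCODE M21, which has no row of its own in the table.

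Klf2 encodes a Krüppel-like zinc-finger factor that supports the naive state with Klf4 and Klf5. Klf2 ran from 0 through a median of 1.38 to 112 CPM in Gata6-over cells, and from 0 through 39.4 to 223 CPM in Gata6-under cells. Only 2 Gata6-over cells exceeded the Gata6-under median. Mean CPM was 16.2 ± 32.1 in Gata6-over cells (SD, n = 13) and 56.5 ± 52.8 in Gata6-under cells (SD, n = 35), a log2 ratio of -1.81. Cell 40 had the most Klf2 of the Gata6-over cells, and without it the ratio was 6.94-fold lower (log2 -2.80).

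Nr0b1 (Dax1), on the X chromosome, encodes an atypical nuclear receptor without a classical DNA-binding domain that acts as a corepressor. Nr0b1 ran from 0 through a median of 0.153 to 97.4 CPM in Gata6-over cells, and from 0 through 54.4 to 391 CPM in Gata6-under cells. It was detected in 6 of 13 Gata6-over cells and in 29 of 35 Gata6-under cells. The Gata6-under cells without it stood apart: 6 had at most 0.288 CPM and 29 at least 12.4 CPM. Mean CPM was 14.5 ± 28.6 in Gata6-over cells (SD, n = 13) and 76.5 ± 82.1 in Gata6-under cells (SD, n = 35). The log2 ratio of these means was -2.40, and -3.34 (10.1-fold lower) without cell 27, the Gata6-over cell with the most Nr0b1.

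Prdm14 encodes a PR-domain protein that represses FGF receptor signalling and DNA methyltransferase genes in ES cells. Its median per kilobase was the lowest of the 9 among Gata6-under cells, though its mean per kilobase there (11.4 CPM) was above those of Tbx3 (10.4) and Klf5 (7.62). Prdm14 ran from 0 through a median of 0 to 14.2 CPM in Gata6-over cells, and from 0 through 3.03 to 301 CPM in Gata6-under cells. It was detected in 2 of 13 Gata6-over cells (15.4%, 1.92% to 45.4%) and in 19 of 35 Gata6-under cells (54.3%, 36.6% to 71.2%). Mean CPM was 1.64 ± 4.18 in Gata6-over cells (SD, n = 13) and 29.4 ± 57.7 in Gata6-under cells (SD, n = 35). The log2 ratio was -4.17, and it moved to -5.64 without cell 4, a Gata6-over cell. Without the 5 Gata6-over cells that had at least 20 CPM of Pou5f1 it was -9.16. By medians plus 1 CPM it was -2.01, and the difference of mean log2(CPM + 1) was -2.05, so its size depends on the summary and on single cells.

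Klf4, a target of STAT3 and a reprogramming factor, did not share this pattern. It ran from 0.231 through a median of 107 to 245 CPM in Gata6-over cells, and from 0.149 through 74.4 to 351 CPM in Gata6-under cells, and 8 of 13 Gata6-over cells exceeded the Gata6-under median. Mean CPM was 108 ± 75.1 in Gata6-over cells (SD, n = 13) and 92.7 ± 83.0 in Gata6-under cells (SD, n = 35), a log2 ratio of 0.23, short of 2-fold. Klf5, which also acts in trophectoderm, ran from 0.307 through a median of 27.6 to 195 CPM in Gata6-over cells, and from 0 through 27.9 to 125 CPM in Gata6-under cells. Mean CPM of Klf5 was 57.9 ± 67.8 in Gata6-over cells (SD, n = 13) and 39.7 ± 33.3 in Gata6-under cells (SD, n = 35). The log2 ratio was 0.55, while the difference of mean log2(CPM + 1) was -0.22, so the sign differs between the scales.

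Tbx3, a T-box factor reported to promote extraembryonic endoderm genes in mouse ES cells, had the most even split among Gata6-under cells, by the widest gap in each factor's levels. Its level ran from 1.93 through a median of 36.8 to 295 CPM in Gata6-over cells, and from 0 through 42.3 to 444 CPM in Gata6-under cells. It was detected in 13 of 13 Gata6-over cells (100%, 75.3% to 100%) and in 21 of 35 Gata6-under cells (60%, 42.1% to 76.1%). Among Gata6-under cells 16 had at most 2.69 CPM and 19 at least 26.3 CPM, with no cell between. That gap (2.89 on the log2 scale) was narrower than those of Tfcp2l1 (5.54), Esrrb (3.70) and Nr0b1 (3.37), which set apart 1, 1 and 6 cells. Mean CPM was 77.5 ± 99.8 in Gata6-over cells (SD, n = 13) and 68.7 ± 96.7 in Gata6-under cells (SD, n = 35). The log2 ratio was 0.17, and it turned to -0.21 without cell 3. The difference of mean log2(CPM + 1), on which low cells weigh more, was 1.18 for Tbx3. The exons of Tbx3 overlap the antisense gene Tbx3os1, which has no row, and the kit does not mark strand, so reads of the pair cannot be told apart.

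**Figure D2:**
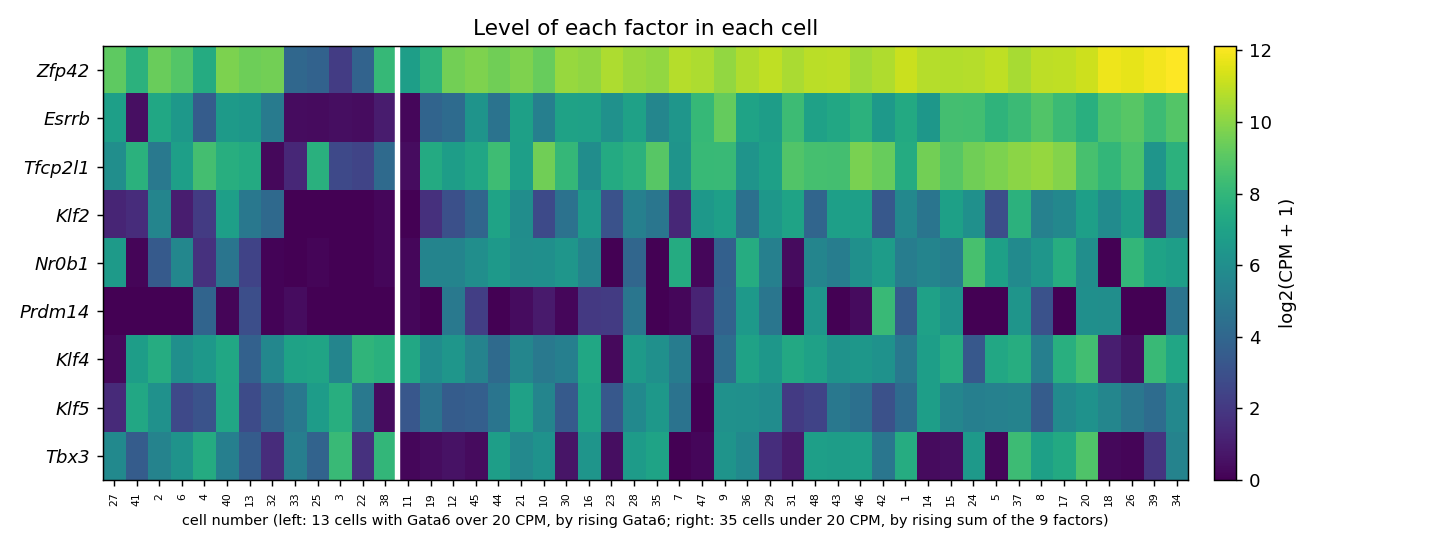
The map of levels by cell shows log2(CPM + 1) of each factor (rows) in each of the 48 cells (columns), with Gata6-over cells left of the white line by rising Gata6 and Gata6-under cells right of it by rising sum of the factors. The 5 cells just left of the line have the highest Gata6 and are dark for Esrrb, Klf2, Prdm14 and Nr0b1 but not for Klf4.

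Within the Gata6-over class the factors differed in how they went with Gata6. The 5 cells with the highest Gata6 (392 to 808 CPM) had Esrrb of 0.278 to 0.920 CPM, Klf2 of 0 to 0.153 CPM and Nr0b1 of 0 to 0.153 CPM, and none of these 3 genes was detected there. In the other 8 Gata6-over cells (63.7 to 352 CPM of Gata6) the medians were 86.0 CPM for Esrrb, 10.0 CPM for Klf2 and 7.14 CPM for Nr0b1. Zfp42 followed by its median, which was 13.4 CPM in the 5 cells and 609 CPM in the 8. It was detected in all 5, however. Cell 38, with the most Gata6, had 275 CPM of Zfp42, within the range of the 8 (172 to 852 CPM). Klf4 ran the other way, with a median of 134 CPM in the 5 cells and 75.7 CPM in the 8. Tbx3 had a median of 35.2 CPM in the 5 cells and 39.2 CPM in the 8. The same 5 cells had 8072 to 8617 genes detected and the 8 had 8966 to 9693, with no overlap. The part of genes detected in these differences was not tested. This division by Gata6 was chosen after the values were seen.

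Divided instead by Pou5f1, at 20 CPM, 8 Gata6-over cells were under it and 5 at or over it. The median of Tfcp2l1 was 11.3 CPM in the 8 cells and 193 CPM in the 5, and its ranges overlapped between 113 and 207 CPM. Esrrb had a median of 0.642 CPM in the 8 cells and 85.9 CPM in the 5, and Klf4 had 130 CPM in the 8 cells and 87.5 CPM in the 5. With the 8 cells alone set against the Gata6-under class, the log2 ratio of mean CPM was -3.28 for Tfcp2l1 and -2.83 for Klf2.

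The variance of each factor over cells was tested against the trend of genes of like mean with scran modelGeneVar on log2(CPM + 1), one-sided, with Benjamini-Hochberg adjustment over all tested genes. Over 48 cells 3 of the 9 factors were called at 0.05, against 2.03% of 11746 genes. Tfcp2l1 had a variance of 5.82, which was 4.43 above the trend (modelGeneVar adjusted p = 5.3e-13), and Zfp42 and Esrrb were called as well. This variance includes the difference between the classes. Within the 35 Gata6-under cells the same 3 factors were called, against 1.75% of 11454 genes. There Zfp42 had a variance of 1.06 and a trend of 0.25 (modelGeneVar adjusted p = 6.17e-15), Tfcp2l1 3.17 and 0.75 (adjusted p = 4.55e-15), and Esrrb 3.22 and 1.45 (adjusted p = 0.0365). A single cell, cell 11, weighed on these: without it the variance was 0.67 for Zfp42, 1.46 for Tfcp2l1 and 1.89 for Esrrb. Zfp42 (adjusted p = 0.000634) and Tfcp2l1 (0.0354) were then still called by modelGeneVar and Esrrb (0.932) was not. The Esrrb call among Gata6-under cells was also lost under 5 other settings of filter, pseudocount, scaling or depth (modelGeneVar adjusted p = 0.0773 to 0.554).

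The other 6 factors were not called in either set. Tbx3 had the largest variance of the 9 among Gata6-under cells, 10.2, but genes of its mean level had a trend of 5.62 (modelGeneVar unadjusted p = 0.0159, adjusted p = 0.454). Nr0b1 had 6.26 where the trend gave 4.00, Klf4 4.82 where it gave 3.20, and Prdm14 7.43 where it gave 5.83. Klf5 and Klf2 lay below the trend, at 2.31 against 4.52 and 3.84 against 4.24.

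**Figure D3:**
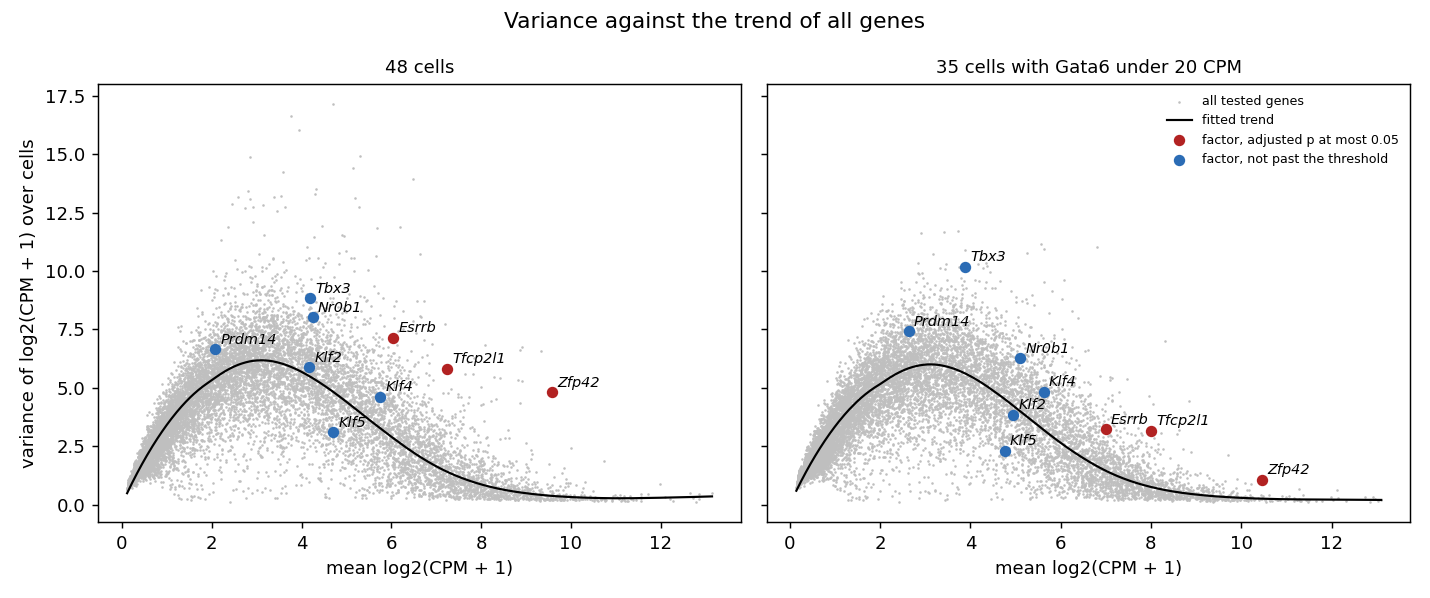
The plot of variance against mean shows each tested gene (grey), the fitted trend (line) and the 9 factors, in red where the adjusted p is at most 0.05 and in blue otherwise, over 48 cells (left) and over 35 Gata6-under cells (right), on log2(CPM + 1). Zfp42, Tfcp2l1 and Esrrb are red in both panels, and Tbx3 stands highest on the right at 10.2.

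Correlations of the factors are given within each class as Spearman's rho over cells, as a description with no p-value. The points share a culture as far as labelled, and each is a library of its own. Over 13 Gata6-over cells the 36 pairs had a median rho of 0.04, with 19 positive and 6 at 0.5 or more, where 50.03% of all gene pairs were positive and 4.69% reached 0.5. Over 35 Gata6-under cells the median was 0.13, with 33 positive and 2 at 0.5 or more, where 50.02% of all gene pairs were positive and 0.218% reached 0.5. In the Gata6-over class the 6 high pairs were all those among Zfp42, Esrrb, Klf2 and Nr0b1, from Klf2 with Nr0b1 at 0.59 to Zfp42 with Klf2 at 0.87. The same 4 genes also ran with the number of genes detected in those 13 cells (rho 0.74, 0.84, 0.73 and 0.77 for Zfp42, Esrrb, Klf2 and Nr0b1), and the part of this in the correlations was not tested. They ran against Gata6, at -0.46, -0.67, -0.58 and -0.66 for the same genes, while Klf4 had 0.41.

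In the Gata6-under class the highest pair was Zfp42 with Esrrb at 0.64, and without cell 11 it was 0.61. Esrrb with Klf2 had 0.53 (0.49 without cell 11), Klf2 with Tbx3 0.40 and Esrrb with Tfcp2l1 0.38. Nr0b1, linked to Esrrb in the Gata6-over class (0.83), had 0.19 with it here, and the difference was not tested. Nr0b1 ran with Pou5f1 in both classes, at 0.55 over Gata6-over cells and 0.56 over Gata6-under cells. Tbx3 had a rho with Nanog of -0.12 over Gata6-over cells and 0.42 over Gata6-under cells. Esrrb (-0.45), Zfp42 (-0.32) and Tfcp2l1 (-0.32) ran against the number of genes detected, as did Klf2 (-0.25) and Nr0b1 (-0.22). All 5 were positive in the Gata6-over class, where Tfcp2l1 had 0.25.

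**Figure D4:**
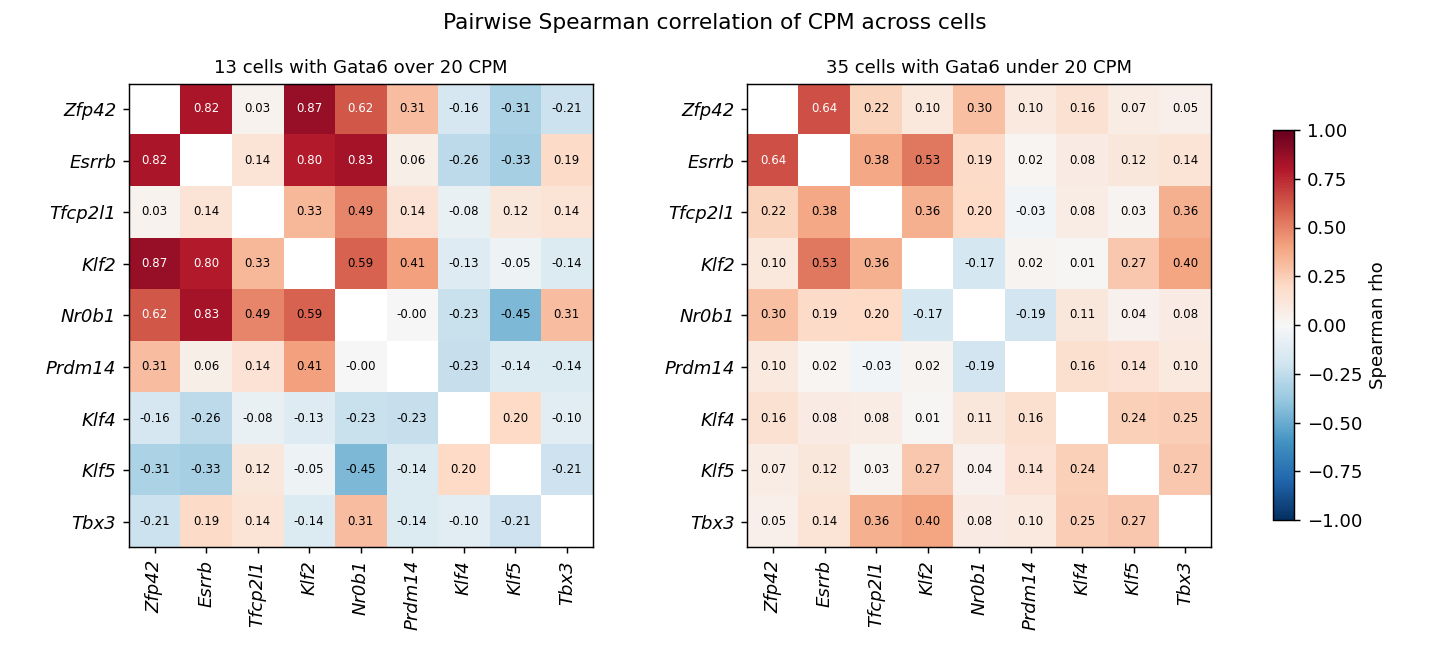
The matrix of pairwise correlations gives Spearman's rho of CPM for each pair of factors over 13 Gata6-over cells (left) and 35 Gata6-under cells (right), from blue (-1) to red (1). The block of Zfp42, Esrrb, Klf2 and Nr0b1 is red on the left, and on the right the highest value is 0.64, for Zfp42 with Esrrb.

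**Figure D5:**
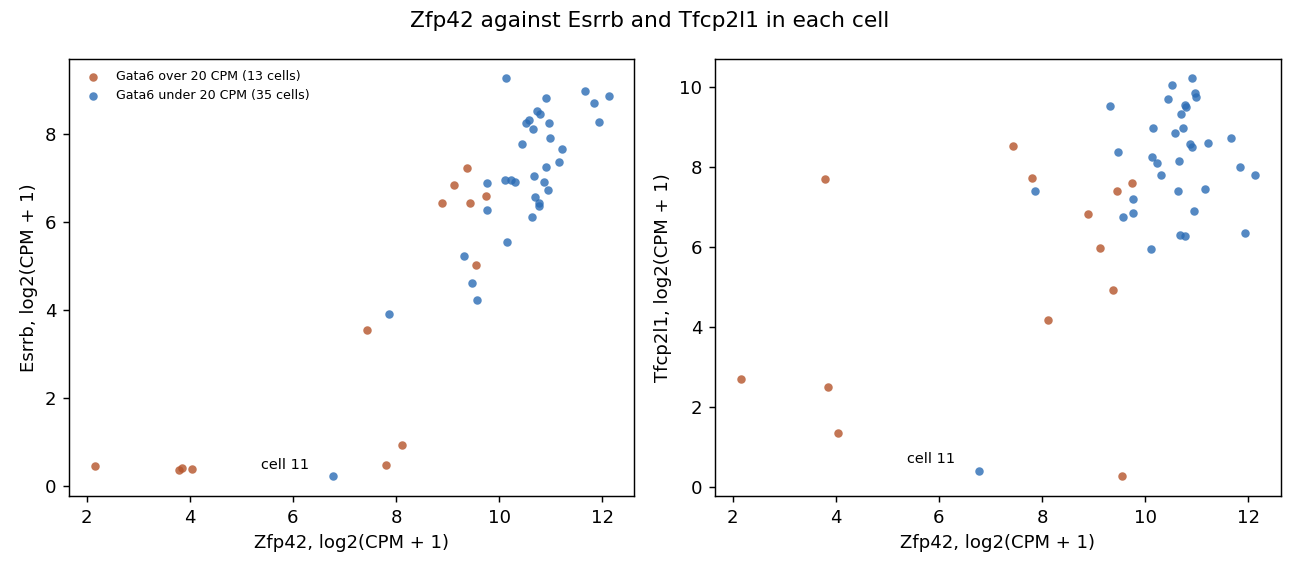
The plot of Zfp42 against Esrrb (left) and Tfcp2l1 (right) shows log2(CPM + 1) in each cell, with Gata6-over and Gata6-under cells in different colours. Cell 11 lies among the low Gata6-over cells for Esrrb and Tfcp2l1, at 0.165 and 0.329 CPM.

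Cell 11, a Gata6-under cell picked out after its values were seen, was the lowest of the 35 for Zfp42 (109 CPM), Esrrb (0.165 CPM, 1 read), Klf2 (0 reads) and Tfcp2l1 (0.329 CPM, 2 reads). It was also the lowest for Sox2 (9.06 CPM) and Nanog (1.65 CPM). Its Klf4 was high, at 151 CPM, above 27 of the other cells. It had the most Dnmt3b, a de novo DNA methyltransferase, at 1779 CPM, where the class median was 204 CPM. It also had the most Pou3f1, a POU factor of primed epiblast, at 37.2 CPM, where the median was 0. Fgf5 of primed epiblast had 0 reads in it, Pou5f1 41.0 CPM and Gata6 0.329 CPM. The next lowest Gata6-under cells had 14.1 CPM of Esrrb and 60.7 CPM of Tfcp2l1.

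Genes around the factors were counted from lists by the same 2-fold rule, against 27.7% of genes lower and 18.2% higher. Of 20 partner pluripotency genes, 15 were lower in Gata6-over cells and 0 higher, with a median log2 ratio of -1.63. Tcl1, a coactivator of Akt kinase (log2 -6.62), Dppa3, the maternal factor Stella (-2.66), and Pou5f1 (-2.28) were among them, and Foxd3 had a mean of 0.0798 CPM in Gata6-over cells and 3.90 CPM in Gata6-under cells. Of 8 genes of FGF and ERK signalling 6 were lower and 1 higher. Etv4 (-3.31), Fgfr1 (-2.22) and the ligand Fgf4 (-2.06) were lower and the receptor Fgfr2 (2.41) was higher. Of 5 LIF genes none was lower and 2 were higher, the receptor Lifr (2.10) and the feedback inhibitor Socs3 (1.82). The medians of Socs3 were closer than its means, at 9.04 CPM in Gata6-over cells and 5.50 CPM in Gata6-under cells. None of 4 tested WNT genes passed 2-fold.

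Related genes did not all follow their relatives. Among 11 tested Krüppel-like genes outside the 9, 5 were lower and 1 higher by mean CPM. Klf10 (log2 -2.39), Klf15 (-2.02) and Klf11 (-1.20) were lower in Gata6-over cells and Klf6 (1.25) was higher. Klf15 and Klf11 were near 0 in most cells. Klf11 was detected in 5 of 13 Gata6-over and 10 of 35 Gata6-under cells, with medians of 0.182 and 0.238 CPM. Klf15 was detected in 1 Gata6-over and 6 Gata6-under cells, with medians of 0 and 0.118 CPM. Among 14 tested relatives of the other factors, 8 were lower and 1 higher. By mean CPM Prdm1, the PR-domain repressor Blimp1 (-3.49), and Yy2 (-2.61) were lower and Prdm15 (3.19) was higher. The medians of Yy2 were close, at 0.692 CPM in Gata6-over cells and 0.888 CPM in Gata6-under cells. Yy2 was detected in 6 of 13 Gata6-over cells and 17 of 35 Gata6-under cells. Prdm15 rested on few cells: it was detected in 3 of 13 Gata6-over cells and 10 of 35 Gata6-under cells, with a median of 0.166 CPM in Gata6-over cells and 0.117 CPM in Gata6-under cells. Prdm1 was detected in 2 of 13 Gata6-over cells and 19 of 35 Gata6-under cells, while Grhl1 had 0.0355 CPM in Gata6-over cells and 10.7 CPM in Gata6-under cells.

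For each factor the 3 genes with the highest rho over the 35 Gata6-under cells, among 11454 genes, were listed as a description, and the 27 values ran from 0.55 to 0.74. Zfp42 had the ATP synthase subunits Atp5g1 (0.73) and Atp5o (0.65) and the helicase Eif4a1 (0.63). Esrrb had Bccip (0.74), the proteasome subunit Psmc4 (0.69) and Gdf3, a TGF-beta family ligand (0.69). Tfcp2l1 had Dnajc11 (0.63), Tuba1c (0.62) and again Psmc4 (0.59). Klf2 had the mitochondrial enzyme Idh2 (0.65), 8430410K20Rik (0.64) and the DNA polymerase gene Polq (0.58). Nr0b1 had Golph3 (0.66), the histone demethylase Kdm6b (0.61) and Cdc42se2 (0.58), and Prdm14 had 9430023L20Rik (0.59), Gtf2e2 (0.58) and Dkkl1 (0.57). Klf4 had Cenpk (0.57), Phrf1 (0.56) and Wdr34 (0.55), Klf5 had the histone demethylase Kdm4a (0.58), Ik (0.58) and Lyrm4 (0.58), and Tbx3 had the NF-kB subunit Rela (0.65), Sgms1 (0.64) and Stmn3 (0.64).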

How the data were processed

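Single-cell RNA-seq of the J1 cells gave 96 samples, from 48 cells on 2 lanes each. The authors deposited raw counts, 1 column for each cell and lane. Per the submitters' processing notes, the tools and build were Subread 1.4.5-p1, featureCounts, STAR 2.3.1z12 and mm9, without their roles. How reads that map to several genes were counted is not given in the sources used here. Lanes of a cell differed about as much as counting noise: the chi-square index was 0.964 to 1.05. Of the 48 cells 1, cell 27, had an unadjusted chi-square p under 0.05 (0.00246). Of 354 comparisons of a factor in a cell 12 had an unadjusted binomial p under 0.05 and 0 an adjusted one. Lanes were therefore summed, so that a cell counts once.

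Counts were scaled to CPM with edgeR 4.0.16 (TMMwsp) in R 4.3.3. Tests took genes that averaged 10 or more reads per cell. Class differences were ratios of mean CPM past 2-fold. Variance was tested with modelGeneVar of scran 1.30.0 on log2(CPM + 1), a procedure tested on simulated data. All 9 factors passed the count minimum. Depth was 4408953 to 9767245 reads per cell. Alternatives changed the count filter, pseudocount, scaling, Gata6 threshold, depth, lanes, summary and cells. All 9 factors were named, with the 3 genes most like each over Gata6-under cells and up to 4 genes of largest ratio per list. The factors and lists were chosen with earlier results of these data known.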

Additional observations from a re-analysis of the deposited data

How the results depend on the processing

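The number of factors at least 2-fold lower in Gata6-over cells was 6 under every alternative run, and thresholds of 5 and 50 CPM of Gata6 left 13 cells in that class. Among all genes 3256 were at least 2-fold lower, 5245 with no count filter and 1887 by the ratio of medians plus 1 CPM. Genes called variable numbered 239 over 48 cells and 159 with a pseudocount of 10 CPM, and among Gata6-under cells 200 and 97. The cause was not tested. Esrrb lost its modelGeneVar call among Gata6-under cells with no count filter (adjusted p = 0.0773), the pseudocount of 10 CPM (0.554), library size alone (0.226), scran factors (0.225) and thinned cells (0.161), and over 48 cells with that pseudocount (0.498). By medians plus 1 CPM the log2 ratio was -3.49 for Esrrb, -4.08 for Klf2, -5.59 for Nr0b1 and -2.01 for Prdm14, and for Klf5 (-0.02) and Tbx3 (-0.20), both short of 2-fold, its sign turned. The alternatives without cell 11, and those that left out each cell in turn, were chosen after seeing the data. No paired analysis was possible because all cells form 1 group. The log2 ratio of Prdm14 was -4.17 with the settings used above, -3.94 in thinned cells and -4.21 on lane 1 alone. With each cell left out in turn it ran from -5.64 to -3.71. Lane 1 alone lowers the depth of both classes, and the part of depth in this ratio was not tested.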
